A study of Mus musculus with 12 samples.

Results

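Cytochrome P450 enzymes of families 1, 2 and 3 were followed across 12 liver arrays. They were chosen by name: every non-control probe counted whose gene symbol begins with Cyp1, Cyp2 or Cyp3 and a subfamily letter, as the array design or the RefSeq accession of the probe gives it. The rule took 69 of 41174 probes, which read 46 of the 28786 gene names on the array. A probe entered the tests when at least 4 arrays had it well above background, which 62 probes of 45 genes did. Cyp2ab1 had no tested probe, and it was above background on 0 of 12 arrays.

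The livers came from male C57BL/6 mice, 3 months old, whose liver lacks the glucocorticoid receptor (GR). All 3 groups carried that knockout, and no group with an intact receptor was analysed here. The 4 samples of the PBS group received buffer, 4 received an adeno-associated virus with green fluorescent protein (AAV-GFP), and 4 an adeno-associated virus with human GR beta (AAV-hGRB). By its title, the series is about transcription driven by human GR beta where GR alpha is missing; GR beta is a receptor isoform that lacks glucocorticoid binding. Not given in the sources used here are the Cre line behind the knockout, the promoter of the vectors, the dose and the time after injection.

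Microsomal P450s are haem enzymes of the endoplasmic reticulum that insert an oxygen atom into their substrates with electrons from P450 reductase, Por. Families 1 to 3 oxidise drugs, toxins, steroids and fatty acids, and hepatocytes around the central vein hold much of the liver's supply. The receptor Ahr and the nuclear receptors CAR (Nr1i3) and PXR (Nr1i2) induce family 1, subfamily 2B and subfamily 3A. GR is known to support the transcription of CAR and PXR. In mice, the pulse pattern of growth hormone makes many of these genes male-biased or female-biased.

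Neighbouring P450 genes are near copies, so what each probe can tell apart matters for every value given here. In the Cyp2c cluster on chromosome 19, the probes of 3 genes read the same stretch of the transcript. They were picked after their values were seen, to set those values side by side. Capitals in the Cyp2c54 and Cyp2c38 probes mark bases that match the Cyp2c40 probe, and capitals in the Cyp2c40 probe mark the stretch that both alignments cover.
Cyp2c40, A_52_P200121: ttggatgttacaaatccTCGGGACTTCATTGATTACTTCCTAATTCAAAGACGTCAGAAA
Cyp2c54, A_52_P154580: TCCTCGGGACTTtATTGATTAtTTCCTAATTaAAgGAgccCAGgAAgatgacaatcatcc
Cyp2c38, A_51_P342206: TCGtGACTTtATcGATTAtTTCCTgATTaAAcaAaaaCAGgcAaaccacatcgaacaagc
The Cyp2c54 probe matched that of Cyp2c40 at 38 of 46 aligned bases (82.6%), and the Cyp2c38 probe at 30 of 43 (69.8%). On mm7, the build of the array design, each of these 60-base probes aligns across a far longer stretch. Cyp2c40 lies at chr19:39680672-39696310, Cyp2c54 at chr19:39941403-39963984 and Cyp2c38 at chr19:39298557-39329867, all on the minus strand. No annotation of mm7 was used here, so exons, introns and UTRs are not named for any probe.

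The Cyp2a4 and Cyp2a5 probes on chromosome 7 overlap even more closely. Both encode steroid and coumarin hydroxylases, and 30 bases of their overlap are shown, with the bases that differ in capitals.
Cyp2a4, A_51_P377154: ggacacTTCgtagacttgcagaggatattt
Cyp2a5, A_52_P246252: ggacacAGAgtagacttgcagaggatattt
The whole overlap matched at 35 of 38 bases. On mm7 the array design places them at chr7:23212199-23212258 and chr7:23212221-23212279, both on the plus strand. The design's accession column lists Cyp2a5 for both Cyp2a4 probes. It also lists a paralog for probes of Cyp2a5, Cyp2b9, Cyp2b13, Cyp2c37, Cyp2c40, Cyp2d9 and Cyp3a11, and how signal divides between such copies was not tested.

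Values are log2 of the processed intensity minus the array's 75th percentile, so 0 is the level of a probe at that percentile. Across the arrays, 22600 to 27317 probes were well above background, the 75th percentile of intensity lay between 209 and 598, and 3 to 11 probes were saturated, of which 0 were P450 probes. For the knocked-out gene itself, Nr3c1, the mean level was 0.37 ± 0.15 in PBS, 0.34 ± 0.20 in AAV-GFP and 0.40 ± 0.16 in AAV-hGRB (SD, n = 4). No probe is stated to lie in its deleted part, so this level checks neither the knockout nor the transgene. Hepatocyte markers were abundant in every sample, with a mean over 7 genes between 7.53 and 8.19. Whether every sample is a separate animal is not stated, so the p-values rest on spread that may be technical. As livers were measured whole, fewer cells of a type and less RNA per cell cannot be told apart.

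Single arrays of the AAV-GFP group stood apart for these genes before any group was compared. AAV-GFP replicate 3 was the lowest of the 12 arrays on 30 of the 62 P450 probes (48.4%), against 23.8% of all tested probes. It was the highest on 6 (9.68%), against 30.1% of all tested probes. Its median deviation from each probe's median over the 12 arrays was -0.66 over the P450 probes and 0.19 over all probes. It stood more than 1 log2 unit below the median of the other 11 arrays on 24 P450 probes, while no other array did so on more than 5. It also had the lowest 75th percentile and the fewest probes above background of the 12. AAV-GFP replicates 2 and 1 stood at the other end. They were the highest array on 22 (35.5%) and 12 (19.4%) of the P450 probes, against 9.3% and 4.5% of all tested probes. Their median deviations over the P450 probes were 0.36 and 0.27. Fits without AAV-GFP replicate 3 keep both of these arrays, so such fits are not free of unusual arrays.

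**Figure D1:**
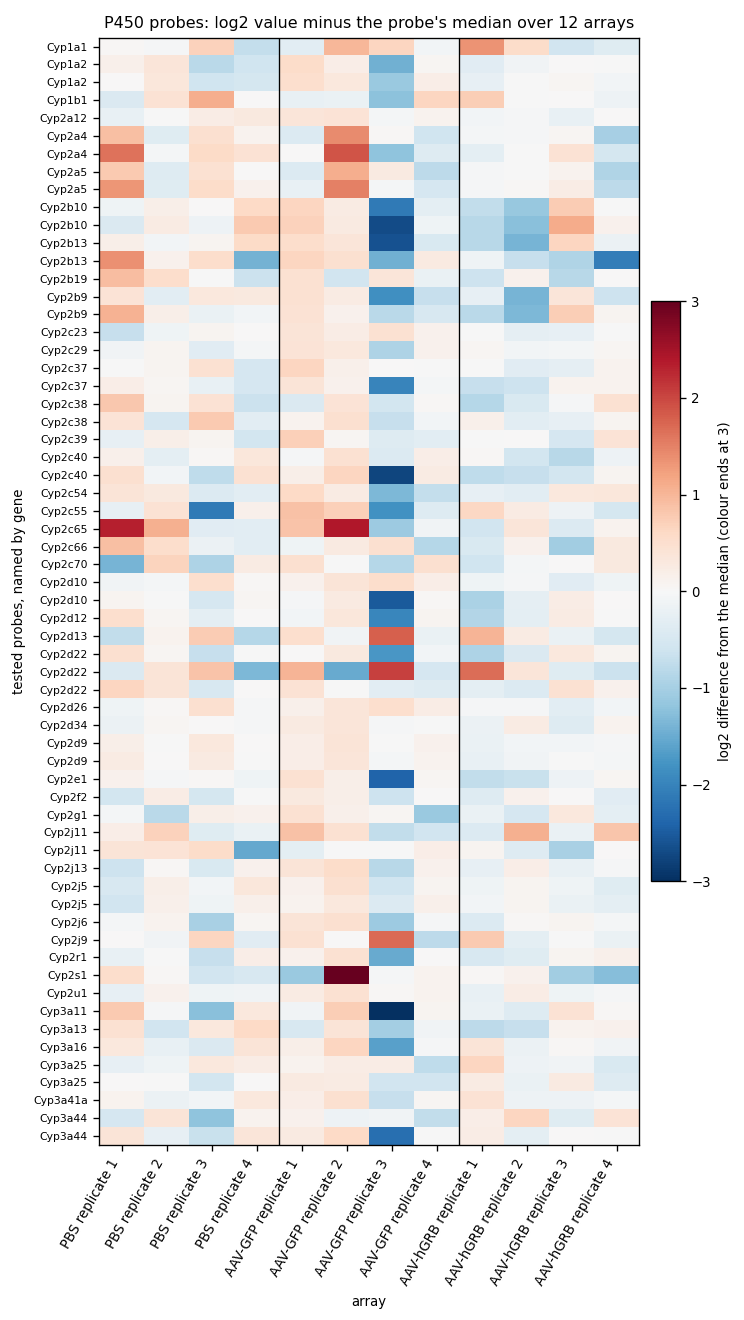
Each row is 1 of the 62 tested P450 probes, named by its gene, and each column 1 array. Colour gives the log2 value minus the probe's median over the 12 arrays and stops at 3 in either direction. The column of AAV-GFP replicate 3 is blue on many rows, among them Cyp2b10, Cyp2e1 and Cyp3a11, and red on Cyp2d13, Cyp2j9 and 1 of the 3 Cyp2d22 probes.

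The depth of the drop on AAV-GFP replicate 3 differed between the probes of some genes. In others both probes fell together. The Cyp2b10 probes stood at -2.83 and -2.14 from the median of the other 11 arrays, and the Cyp1a2 probes at -1.12 and -1.46. The probes shown next were picked after their values were seen, and that of Cyp3a11 had the deepest drop.
Cyp3a11, A_51_P355301: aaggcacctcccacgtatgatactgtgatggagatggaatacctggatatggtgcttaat
Cyp2e1, A_51_P283456: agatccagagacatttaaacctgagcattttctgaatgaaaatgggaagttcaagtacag
Cyp2d10 upstream, A_52_P527775: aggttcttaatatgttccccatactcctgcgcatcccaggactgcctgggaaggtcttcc
Cyp2c37 upstream, A_52_P625249: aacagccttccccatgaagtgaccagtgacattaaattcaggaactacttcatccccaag
Cyp3a44 upstream, A_52_P571006: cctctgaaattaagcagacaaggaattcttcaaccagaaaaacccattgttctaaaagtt
On AAV-GFP replicate 3 the Cyp3a11 probe stood 3.59 below the median of the other 11 arrays (deviation -3.59) and the Cyp2e1 probe at -2.44. The upstream probes of Cyp2d10, Cyp2c37 and Cyp3a44 stood at -2.52, -2.04 and -2.27. The Cyp2c40 probe printed with its Cyp2c neighbours stood at -2.84.

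Of the same genes, the probes nearer the end of the gene are given by their first 30 bases.
Cyp2d10 downstream, A_51_P111192: cttctcagtgcccaatggacagcccaggcc
Cyp2c37 downstream, A_51_P498882: cacactggacacactgacttttatccagtt
Cyp2c40 downstream, A_51_P502599: caaaggacatcgatatgacccccaaacatt
On the same array these stood at 0.56, 0.01 and -0.44. The 2 Cyp2d10 probes lie 1904 bases apart on mm7 (chr15:82488942-82489631 and chr15:82487353-82487412, minus strand), those of Cyp2c37 lie 10028 apart and those of Cyp2c40 27356 apart. For Cyp2d10, the upstream and the downstream probe thus give 2 readings of 1 gene on this array that differ by 3.08 log2 units.

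Over the 14 P450 genes with at least 2 placed probes, the upstream minus the downstream deviation had a median of -0.91 on AAV-GFP replicate 3 and was negative for 12 of 14. Cyp2b9 (1.22) and Cyp2c38 (0.19) went the other way. The median was -0.46 on PBS replicate 3 and -0.43 on AAV-hGRB replicate 1, where all 14 were negative. It was 0.30 on PBS replicate 1 and 0.31 on AAV-hGRB replicate 3, and the remaining arrays lay between -0.058 and 0.17. Over all 3924 genes on the array with 2 or more placed probes, the median for AAV-GFP replicate 3 was -0.12, so the P450 pairs departed further than pairs in general on this array; no test was made of that. Dim probes near background can fall little further, which limits pairs such as Cyp3a44 (-2.08 on this array). Its downstream probe read -4.58 on AAV-GFP replicate 4 and -5.06 on PBS replicate 3. RNA integrity values were not among the labels, and what sets AAV-GFP replicate 3 apart was not tested.

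**Figure D2:**
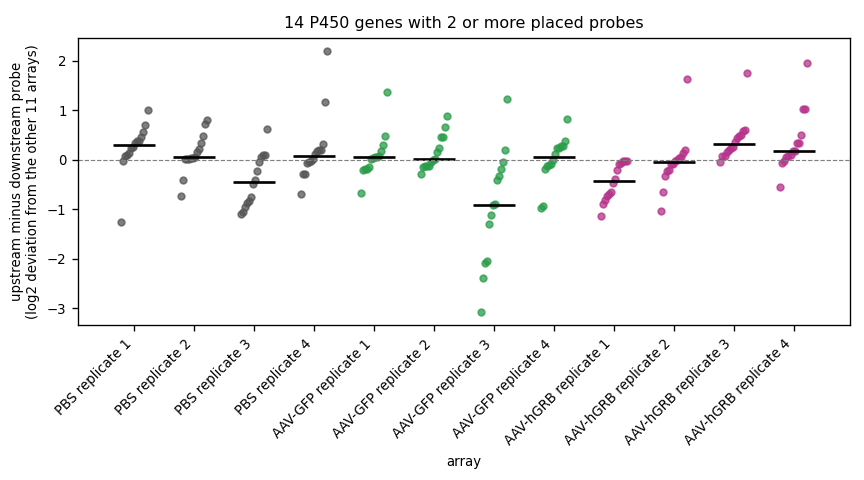
For each array, 14 points give the deviation of a P450 gene's most upstream probe minus that of its most downstream probe, in log2 units, and the bar gives their median. AAV-GFP replicate 3 has the lowest median (-0.91) and the widest spread toward negative values. PBS replicate 3 and AAV-hGRB replicate 1 have medians of -0.46 and -0.43.

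AAV-hGRB against AAV-GFP asks what the human GR beta cargo adds to a vector. By limma's test across 26593 probes with Benjamini-Hochberg adjustment, 0 P450 genes passed the threshold of 0.05, as did 0% of all probes, and the lowest adjusted p of a P450 gene was 0.998. By the probe of highest mean signal, 15 genes stood higher and 30 lower in AAV-hGRB, with a median log2 difference of -0.058 against -0.049 over all probes tested. Differences ran from -1.14 for Cyp2s1 to 0.68 for Cyp3a11. At an unadjusted p under 0.05, 2 genes stood lower, Cyp2d10 and Cyp2d26, and 0 stood higher. Of all probes, 1.51% were below that p with lower values and 1.84% with higher ones, 3.35% in all. The 4 arrays of a group did not overlap those of the other for 4 of 45 genes, against 2.98% of probes. Those genes were Cyp2d10, Cyp2d26, Cyp2d9 and Cyp2c23, all lower in AAV-hGRB.

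The precision bounds what these counts can say. The median standard error of a P450 log2 difference was 0.38, against 0.31 over all probes, and the 95% interval lay within 2-fold in either direction for 22 of the 45 genes. The size of the group's median depended on single AAV-GFP arrays. It turned to 0.024 without AAV-GFP replicate 1 and to 0.066 without replicate 2. Without AAV-GFP replicate 3, 6 genes stood higher and 39 lower, the median was -0.32, and 0 genes passed (lowest limma adjusted p 0.661). Within slides, the single AAV-hGRB and AAV-GFP arrays of slide 5 differed by a median of -0.51, with 40 of 45 genes lower, and those of slide 6, which holds AAV-GFP replicate 3, by 0.52, with 18 lower. Over all probes those medians were -0.0036 and -0.33.

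**Figure D3:**
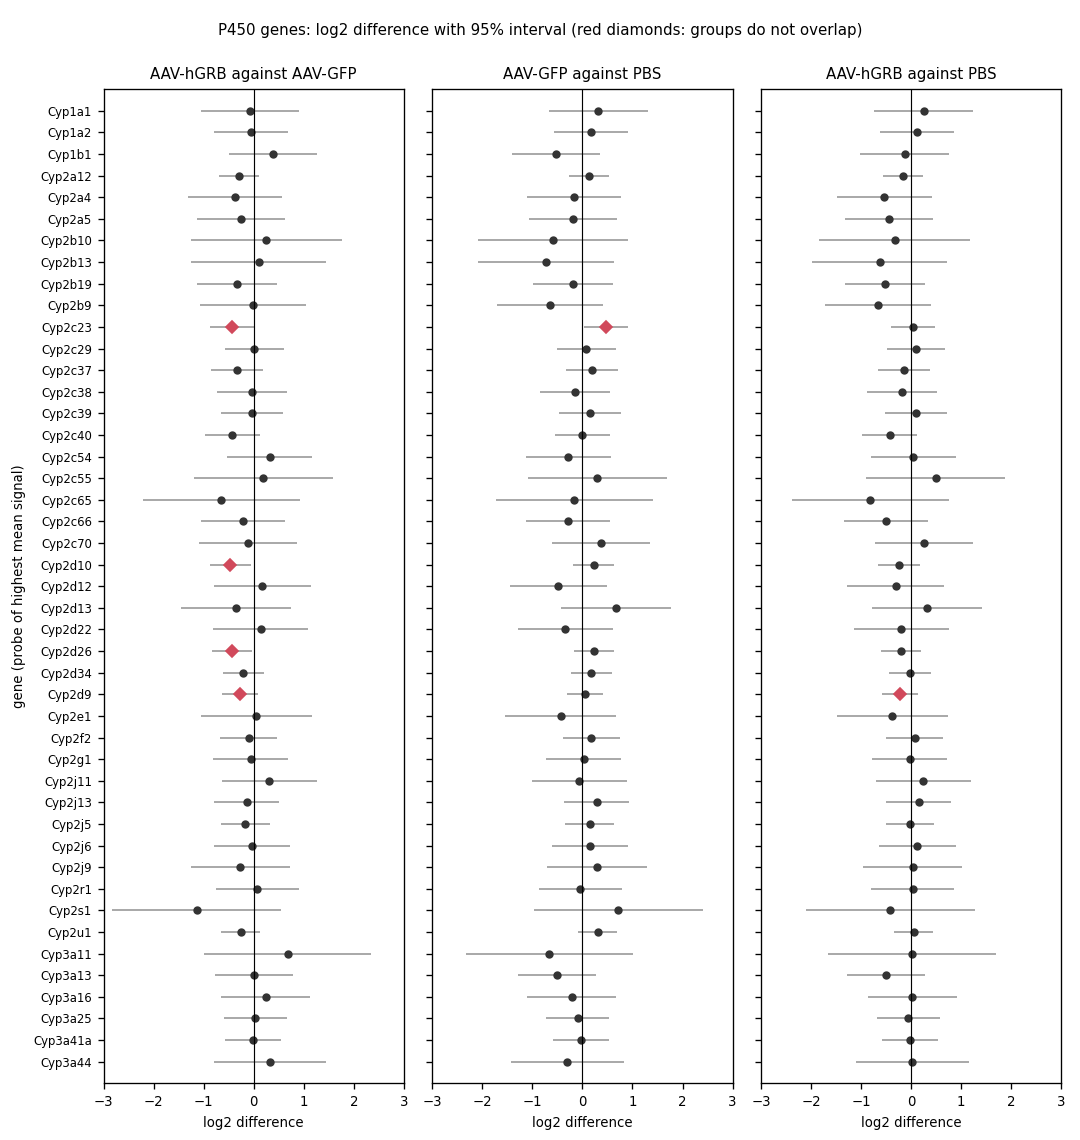
Each row is a P450 gene by its probe of highest mean signal. Points give the log2 difference in 1 of 3 comparisons and lines its 95% interval from limma, and red diamonds mark genes whose 2 groups do not overlap. Diamonds stand at Cyp2c23, Cyp2d10, Cyp2d26 and Cyp2d9 on the left, Cyp2c23 in the middle and Cyp2d9 on the right, and intervals are wide for Cyp2b10, Cyp2s1 and Cyp3a11.

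For a vector whose cargo is GFP, AAV-GFP was set against PBS. Again 0 P450 genes passed, as did 0% of all probes, with a lowest adjusted p of 0.999. There were 22 genes higher and 23 lower in AAV-GFP, with a median of -0.00086 against 0.0040 over all probes. At an unadjusted p under 0.05 there was 1 gene, Cyp2c23, higher, against 0.793% of probes higher and 0.891% lower (1.68% in all). It was also the 1 gene with no overlap (background 0.94%). Without AAV-GFP replicate 3 the split became 34 higher and 11 lower, with a median of 0.21.

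AAV-hGRB against PBS shares its arrays with both other comparisons. It had 0 genes past the threshold (0% of all probes, lowest adjusted p 0.916), 19 higher and 26 lower, and a median of -0.032 against -0.057 over all probes. At an unadjusted p under 0.05 there were 0 genes, against 2.86% of probes higher and 2.98% lower (5.84% in all). Groups did not overlap for 1 gene, Cyp2d9, lower in AAV-hGRB (background 4.59%). The differences of this comparison hold no AAV-GFP array. Its standard errors and p-values rest on spread pooled over all groups, AAV-GFP included. Without AAV-GFP replicate 3 the median was still -0.032, and the lowest limma adjusted p was 0.630.

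Among the genes controlled by Ahr, Cyp1a2, which oxidises caffeine and aromatic amines, was read at 4.36, 4.70, 3.75 and 3.82 in PBS, 4.85, 4.67, 3.24 and 4.56 in AAV-GFP, and 4.09, 4.34, 4.42 and 4.26 in AAV-hGRB (replicates 1 to 4). The AAV-hGRB arrays lay inside the range of both other groups. Its difference was -0.053 (SE 0.34) against AAV-GFP, -0.42 without AAV-GFP replicate 3, and 0.12 against PBS. Its second probe, further upstream, gave the lowest value of all arrays, 2.08, to AAV-GFP replicate 3 as well. Cyp1a1, a hydrocarbon hydroxylase that is low in uninduced liver, lay between -3.35 and -1.29 on all arrays, and the groups overlapped. Cyp1b1, largely a gene of other tissues, was well above background on 7 of 12 arrays and stood at 0.39 (SE 0.41) against AAV-GFP, or 0.065 without AAV-GFP replicate 3.

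In subfamily 2A, Cyp2a5 was read at 8.80, 7.64, 8.49 and 8.05 in PBS, 7.61, 9.11, 8.30 and 7.23 in AAV-GFP, and 7.99, 8.0005, 8.13 and 7.11 in AAV-hGRB. PBS replicate 1 and AAV-GFP replicate 2 were the highest arrays, and AAV-hGRB replicate 4 the lowest. The downstream Cyp2a4 probe, which shares most of its sequence with that of Cyp2a5, was highest on the same arrays (7.72 and 8.23) and lowest on the same array (5.81). The remaining member, Cyp2a12, a steroid hydroxylase, stayed between 5.28 and 5.92 on all arrays. In AAV-hGRB all 3 genes stood below PBS (median -0.44) and below AAV-GFP (median -0.29), with 0 past the threshold. The sign of the subfamily's median against PBS held under all 23 alternative settings, and against AAV-GFP it turned under 1 of them, to 0.066 without AAV-GFP replicate 2. Some of these settings cannot change a difference, such as leaving out an array of the group not compared.

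Subfamily 2B holds the classical CAR targets. Cyp2b10, the phenobarbital-inducible enzyme, was read at 0.09, 0.76, 0.37 and 1.30 in PBS, 1.20, 0.78, -2.18 and 0.38 in AAV-GFP, and -0.32, -0.75, 1.62 and 0.65 in AAV-hGRB. AAV-GFP replicate 3 was the lowest array by more than a log2 unit, and the 3 groups overlapped. Against AAV-GFP the difference was 0.25 (SE 0.69), and without that array it was -0.49. By their brightest probes, Cyp2b9 and Cyp2b13, female-biased relatives, were read lowest on the same array, at 1.67 and -0.88. Their dimmer probes were lowest in AAV-hGRB, at -2.83 on replicate 2 and -5.05 on replicate 4. On these probes AAV-GFP replicate 3 read -2.27 and -4.42. Against AAV-GFP, Cyp2b13 differed by 0.10 (SE 0.62) by its brightest probe and by -0.93 (SE 0.62) by the dimmer one. The 4 genes of the subfamily were all lower than in PBS in both vector groups, with medians of -0.61 in AAV-GFP and -0.57 in AAV-hGRB. Without AAV-GFP replicate 3 the first of these was -0.11, with 1 gene higher and 3 lower. With the slide as a block the second was -0.0084, with Cyp2b10 (0.15) and Cyp2b9 (0.065) higher than in PBS and Cyp2b13 (-0.082) and Cyp2b19 (-0.44) lower. The accession columns of the Cyp2b9 and Cyp2b13 probes list Cyp2b10 too, so these genes are not independent readings. Cyp2b19, an epoxygenase of skin, lay between -3.49 and -1.73 and differed by -0.33 (SE 0.37) from AAV-GFP.

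Subfamily 2C, the largest with 11 tested genes, metabolises arachidonic acid, retinoids, steroids and drugs. Against AAV-GFP, 3 of its genes stood higher in AAV-hGRB and 8 lower (median -0.11), and all 11 lower without AAV-GFP replicate 3 (median -0.36). Cyp2c23, an arachidonic acid epoxygenase named Cyp2c44 in the array design, was read at 6.10, 6.68, 6.89 and 6.81 in PBS, 7.18, 7.03, 7.25 and 6.93 in AAV-GFP, and 6.79, 6.52, 6.56 and 6.78 in AAV-hGRB. All 4 AAV-GFP arrays lay above the arrays of both other groups, and PBS and AAV-hGRB overlapped. The difference of AAV-GFP from PBS was 0.48 (SE 0.20, 1.39-fold, limma adjusted p = 0.999) and that of AAV-hGRB from AAV-GFP -0.44 (SE 0.20, limma adjusted p = 0.998). AAV-GFP replicate 3 was the highest array for this gene, and without it the differences were 0.43 and -0.39.

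Cyp2c29, an abundant drug and arachidonate oxidase, lay between 6.56 and 7.29 on 11 arrays and at 5.96 on AAV-GFP replicate 3, and its difference from AAV-GFP was 0.016 (SE 0.27) with that array and -0.29 without it. Cyp2c40 was read by its downstream probe at 7.15, 6.71, 7.02 and 7.33 in PBS, 6.97, 7.46, 6.58 and 7.198 in AAV-GFP, and 7.03, 6.45, 6.17 and 6.85 in AAV-hGRB. The lowest arrays were AAV-hGRB replicates 2 and 3, and the groups overlapped. The difference of AAV-hGRB was -0.43 (SE 0.25) against either other group. Its upstream probe read 0.72 on AAV-GFP replicate 3 and 2.72 to 4.12 on the rest.

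The other probes of the shared Cyp2c stretch showed smaller drops. On AAV-GFP replicate 3 the Cyp2c54 probe stood at -1.59 and the Cyp2c38 probe at -0.59, against -2.84 for that of Cyp2c40. Cyp2c70, which hydroxylates bile acids in mice, had its 2 lowest values in PBS, 5.16 and 5.64, and its highest there too, 7.23. Cyp2c37, an arachidonic acid oxidase, differed by -0.33 (SE 0.24) from AAV-GFP by its downstream probe. The genes not described singly, Cyp2c39, Cyp2c66, Cyp2d34, Cyp2j6 and Cyp2j13, differed from AAV-GFP by -0.22 to -0.029. Dimmer members, of which Cyp2c65 was picked after its values were seen, spread widely: Cyp2c55 lay between -2.23 and 0.78, and Cyp2c65, above background on 7 of 12 arrays, between -5.53 and -2.05.

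**Figure D4:**
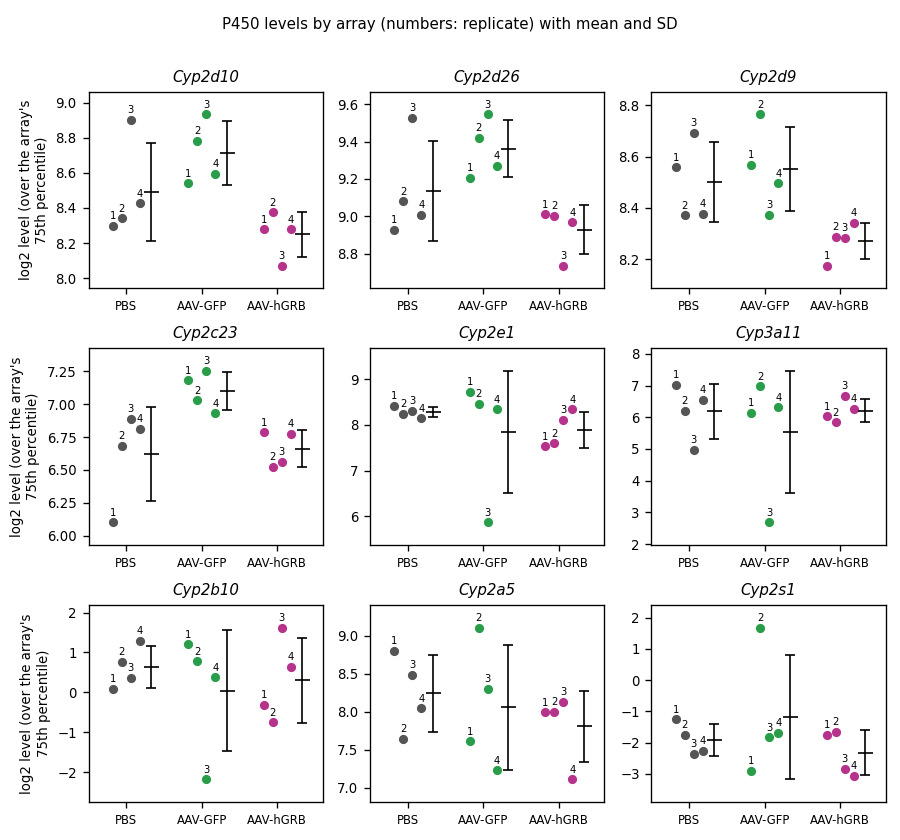
Log2 level over the array's 75th percentile for 9 P450 genes in the 3 groups, with the replicate number above each of 4 points and the mean and SD beside them. The vertical axes differ between panels. The AAV-hGRB points of Cyp2d10, Cyp2d26, Cyp2d9 and Cyp2c23 lie below every AAV-GFP point, AAV-GFP replicate 3 lies far below the rest for Cyp2e1, Cyp3a11 and Cyp2b10, and AAV-GFP replicate 2 lies far above the rest for Cyp2s1.

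Subfamily 2D held 3 of the 4 genes whose AAV-hGRB arrays did not overlap those of AAV-GFP. Its genes encode steroid and drug hydroxylases, and Cyp2d9 is a classical male-biased testosterone hydroxylase. Cyp2d10 was read by its downstream probe at 8.30, 8.34, 8.90 and 8.43 in PBS, 8.54, 8.78, 8.93 and 8.60 in AAV-GFP, and 8.28, 8.37, 8.07 and 8.28 in AAV-hGRB. Every AAV-hGRB array lay below every AAV-GFP array, while 2 PBS arrays fell within the AAV-hGRB range. Group means were 8.49 ± 0.28 in PBS, 8.71 ± 0.18 in AAV-GFP and 8.25 ± 0.13 in AAV-hGRB (SD, n = 4). The difference from AAV-GFP was -0.46 (95% interval -0.88 to -0.05, limma adjusted p = 0.998).

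Cyp2d26 was read at 8.93, 9.08, 9.53 and 9.01 in PBS, 9.21, 9.42, 9.55 and 9.27 in AAV-GFP, and 9.01, 9.001, 8.74 and 8.97 in AAV-hGRB. The order of the groups was the same as for Cyp2d10, with PBS replicate 3 and AAV-GFP replicate 3 the highest arrays for both genes. The difference from AAV-GFP was -0.43 (95% interval -0.83 to -0.03).

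Cyp2d9 was read at 8.56, 8.37, 8.69 and 8.38 in PBS, 8.57, 8.77, 8.37 and 8.50 in AAV-GFP, and 8.17, 8.29, 8.28 and 8.34 in AAV-hGRB. All AAV-hGRB arrays lay below all arrays of both other groups, by a narrow margin. The difference was -0.28 (SE 0.16, 1.21-fold) against AAV-GFP and -0.23 (SE 0.16, 1.17-fold, limma adjusted p = 0.944) against PBS. Its 2 probes share 27 of 60 bases, shown in capitals. By the dimmer one, A_51_P478303, the AAV-hGRB arrays overlapped both other groups, with differences of -0.25 and -0.23 (SE 0.17 each).
Cyp2d9, A_51_P478303: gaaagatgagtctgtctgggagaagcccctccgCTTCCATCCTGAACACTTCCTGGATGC
Cyp2d9, A_51_P124133: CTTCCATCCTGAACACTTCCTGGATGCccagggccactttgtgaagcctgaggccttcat
They lie at chr15:82540764-82540823 and chr15:82540797-82540856 on the plus strand of mm7. The design's accession column lists Cyp2d22 and Cyp2d34 beside Cyp2d9.

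Within slides, the difference of AAV-hGRB from AAV-GFP for Cyp2d10 was -0.51 on slide 5 and -0.86 on slide 6. For Cyp2d26 it was -0.41 and -0.81, for Cyp2d9 -0.59 and -0.09, and for Cyp2c23 -0.24 and -0.69. As the 2 groups do not overlap for these genes, each of these signs was fixed in advance and adds no support. The upstream Cyp2d10 probe gave another picture: AAV-GFP replicate 3 read 2.04 and the other 11 arrays 3.59 to 4.82, and the groups overlapped. Over the subfamily, 2 genes stood higher and 5 lower than in AAV-GFP (median -0.28). The sign of this median held under all 23 alternatives, between -0.45 and -0.0082, though some of them cannot change it. For single genes the difference from AAV-GFP shrank under some settings. It ran from -0.69 to -0.077 for Cyp2d10, -0.59 to -0.14 for Cyp2d26 and -0.46 to -0.0082 for Cyp2d9.

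The other 2D genes overlapped between AAV-hGRB and AAV-GFP. Cyp2d13 (-0.36) and Cyp2d34 (-0.20) stood lower, and Cyp2d12 (0.17) and Cyp2d22 (0.14) higher. Leaving out AAV-GFP replicate 3, Cyp2d12 was at -0.35, Cyp2d22 at -0.31 and Cyp2d13 at 0.075, and 6 of the 7 genes stood lower. Cyp2d22 was read by its brightest probe at 2.58 on AAV-GFP replicate 3 and 3.40 to 4.80 elsewhere. A dimmer Cyp2d22 probe read highest on that array, at 2.26, and next on AAV-hGRB replicate 1, at 1.89. Cyp2d13 was likewise highest on AAV-GFP replicate 3 (5.12) and AAV-hGRB replicate 1 (4.35). Cyp2d12 read 4.47 on AAV-GFP replicate 3, 5.54 on AAV-hGRB replicate 1 and 6.13 to 6.94 on the others.

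Cyp2e1, the pericentral enzyme that oxidises ethanol and paracetamol, was read at 8.41, 8.24, 8.31 and 8.14 in PBS, 8.72, 8.45, 5.87 and 8.34 in AAV-GFP, and 7.53, 7.60, 8.11 and 8.34 in AAV-hGRB. Apart from AAV-GFP replicate 3, the lowest arrays were AAV-hGRB replicates 1 and 2. The difference from AAV-GFP was 0.05 (SE 0.51) with that array and -0.61 without it, and against PBS it was -0.38 (SE 0.51). The array holds 1 Cyp2e1 probe, so probe position could not be compared for it. Cyp2f2, a periportal P450 that activates naphthalene, lay between 7.39 and 8.31, and its difference from AAV-GFP was -0.10 (SE 0.26), or -0.30 without AAV-GFP replicate 3.

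In subfamily 3A, whose members are PXR targets with broad drug and steroid substrates, Cyp3a11 was read at 7.02, 6.199, 4.98 and 6.55 in PBS, 6.13, 6.98, 2.69 and 6.31 in AAV-GFP, and 6.03, 5.84, 6.68 and 6.27 in AAV-hGRB. AAV-GFP replicate 3 was lowest and PBS replicate 3 next, and AAV-hGRB stayed inside the range of the rest. The difference from AAV-GFP, 0.68 (SE 0.77, limma adjusted p = 0.998), was the highest of the 45 genes in this comparison, and without AAV-GFP replicate 3 it was -0.27. Against PBS it was 0.017 (95% interval -1.66 to 1.69). AAV-GFP replicate 3 has no part in that difference, but it enters the spread, pooled over all groups, behind the interval. Against AAV-GFP the difference was -0.94 on slide 5 and 3.99 on slide 6.

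Cyp3a13, a 3A enzyme of liver and gut, stood at -0.50 in AAV-GFP and -0.51 in AAV-hGRB against PBS (SE 0.36 each). Cyp3a25 differed by -0.095 and -0.059 and had its lowest array in AAV-GFP replicate 4 (4.82). The female-biased Cyp3a41a and Cyp3a44 are read by neighbouring probes on mm7 (chr5:144587472-144587531 and chr5:144587795-144587854, minus strand), and AAV-GFP replicate 3 was lowest on both, at 7.86 and 4.34. Cyp3a16, a fetal form of the subfamily, read 4.36 on AAV-GFP replicate 3 and 5.55 to 6.63 on the others. Its difference in AAV-hGRB from AAV-GFP was 0.24 (SE 0.41), or -0.23 without AAV-GFP replicate 3. In AAV-hGRB, 4 of the 6 genes stood above AAV-GFP and 2 below (median 0.14). Without AAV-GFP replicate 3 there were 1 higher and 5 lower (median -0.24).

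In subfamily 2J, which epoxidises arachidonic acid, Cyp2j5 lay between 5.74 and 6.64 on all arrays and differed by -0.17 (SE 0.22) from AAV-GFP. Of the 5 genes, 1 stood higher than in AAV-GFP and 4 lower (median -0.14). Cyp2j11 lay between -4.34 and -2.56 and differed by 0.31 (SE 0.44), or 0.065 without AAV-GFP replicate 3, while its other tested probe gave -0.29 (SE 0.42). Cyp2j9, picked out after its values were seen, was highest on AAV-GFP replicate 3 (3.33, against 0.82 to 2.41 elsewhere). Cyp2r1, the vitamin D 25-hydroxylase, was lowest there (-0.33, against 0.49 to 1.64) and differed by 0.073 (SE 0.38), or -0.36 without that array. Cyp2u1, a fatty acid hydroxylase, was read at 0.42, 0.80, 0.53 and 0.56 in PBS, 0.92, 1.13, 0.71 and 0.78 in AAV-GFP, and 0.45, 0.90, 0.54 and 0.62 in AAV-hGRB. AAV-GFP tended to the upper end with overlap in both directions, and its difference from PBS was 0.31 (SE 0.18). Cyp2g1, known from the olfactory mucosa, lay between -1.94 and -0.39, with a difference from AAV-GFP of -0.058 (SE 0.34).

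Cyp2s1, a P450 of epithelia that was picked out after its values were seen, had the widest difference of the 45 genes against AAV-GFP. It was read at -1.25, -1.75, -2.35 and -2.26 in PBS, -2.90, 1.67, -1.83 and -1.69 in AAV-GFP, and -1.75, -1.66, -2.83 and -3.06 in AAV-hGRB. A single array, AAV-GFP replicate 2, stood above all others, and the difference of -1.14 (SE 0.78) became -0.18 without it. A dimmer Cyp2s1 probe, above background on 3 arrays and not tested, also read highest there (-2.65).

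Bile duct markers, of which 4 were picked after their values were seen, stood out on the same array. Krt19, a keratin of bile duct cells, read 2.79 on AAV-GFP replicate 2 and -1.61 to -0.04 on the other 11, and Krt7 read 1.17 against -1.96 to -0.20. Epcam read -1.69 against -3.76 to -2.80. The mean over the 7 tested bile duct markers was 0.66 on that array and at most -0.02 on any other, with ranges of -0.39 to -0.20 in PBS, -0.56 to 0.66 in AAV-GFP and -0.68 to -0.43 in AAV-hGRB. Sox9, also on the list, had its lowest value (-0.92) on that array. The mean of the small intestine markers, of which Fabp2 and Vil1 were tested, was 2.77 on the same array and 0.91 to 1.27 on the other 11. Its range was 0.93 to 1.27 in PBS, 0.91 to 2.77 in AAV-GFP and 1.02 to 1.05 in AAV-hGRB. The part of other cell types in the Cyp2s1 value was not tested.

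Around the enzymes, 0 of the receptors that induce them passed the test. PXR (Nr1i2) differed by -0.43 (SE 0.26) in AAV-hGRB against AAV-GFP and by -0.30 against PBS, CAR (Nr1i3) by -0.12 (SE 0.30) and -0.03, and Ahr by 0.08 (SE 0.22) and 0.07. Of 16 receptors and partners, 9 stood higher and 7 lower than in AAV-GFP (median 0.014), with 0 called, and 6 higher and 10 lower without AAV-GFP replicate 3 (median -0.045). For the other targets of Ahr, CAR and PXR, 13 of 22 stood higher than in AAV-GFP (median 0.027) and 8 of 22 higher than in PBS (median -0.083), with 0 called. With AAV-GFP replicate 3 left out, 9 of 22 stood higher than in AAV-GFP (median -0.13). Gsta1, a glutathione transferase, had the largest difference among them against AAV-GFP, 1.48 (SE 0.45, limma adjusted p = 0.998). It read 5.75, 6.26, 5.85 and 5.79 in AAV-hGRB, 4.74, 5.34, 2.98 and 4.67 in AAV-GFP, and 5.97, 4.82, 4.66 and 5.41 in PBS. AAV-hGRB thus lay above AAV-GFP but not above PBS. As Gsta1 is shown for its large difference from AAV-GFP, that separation adds no support (2.98% of all probes had no overlap).

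The electron donors and haem supply of P450s leaned to lower values in AAV-hGRB. Of 18 genes, 15 stood lower than in AAV-GFP (median -0.26) and 18 lower than in PBS (median -0.26), with 0 called in either. In each, 1 gene had an unadjusted limma p under 0.05, against 3.35% and 5.84% of all probes. The median over all probes was -0.049 and -0.057. Without AAV-GFP replicate 3, 17 of 18 stood lower than in AAV-GFP. Por, the reductase that feeds all microsomal P450s, was read at 7.52, 6.78, 7.68 and 7.14 in PBS, 6.58, 7.46, 8.06 and 6.81 in AAV-GFP, and 7.08, 6.17, 6.97 and 6.70 in AAV-hGRB. The groups overlapped, and the difference was -0.50 (SE 0.34) against AAV-GFP and -0.55 against PBS.

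Alas1, the first enzyme of haem synthesis, differed by -0.73 (SE 0.55) and -0.999, with arrays spread from 5.003 to 7.72. Ppox, which makes protoporphyrin, had the lowest p of the list against AAV-GFP. It read 1.71, 1.53, 1.45 and 1.64 in AAV-hGRB and 2.05, 2.12, 2.50 and 1.87 in AAV-GFP, with no overlap, and 1.59 to 2.31 in PBS. Its difference was -0.55 (SE 0.21, limma adjusted p = 0.998). As Ppox is shown for its low p, the lack of overlap adds no support. Of all probes, 2.98% had no overlap in this comparison.

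Lists of sex-biased and zonal genes describe the setting of the P450s. Against AAV-GFP, 5 of 6 tested male-biased P450s stood lower in AAV-hGRB (median -0.27), and 7 of 12 female-biased ones did (median -0.0086). Without AAV-GFP replicate 3 these were 6 of 6 (median -0.33) and 11 of 12 (median -0.44). Against PBS, 3 of the 6 male-biased genes stood lower (median 0.0091) and 10 of the 12 female-biased ones (median -0.45). Some of these belong to family 4, 7 or 17. In AAV-GFP against PBS, 10 of the 12 female-biased genes stood lower (median -0.26), and 5 did without AAV-GFP replicate 3 (median 0.16). Against AAV-GFP, 14 of 19 pericentral genes outside the P450s stood lower in AAV-hGRB (median -0.13), among them Glul, glutamine synthetase (-0.58, SE 0.23). Without AAV-GFP replicate 3, 13 of the 19 did (median -0.18). Of 20 periportal genes 11 stood lower (median -0.13), and 15 without AAV-GFP replicate 3 (median -0.24). Of 25 genes of growth hormone signalling and sex-biased control, 15 stood lower (median -0.14), with 0 called, and 14 without that array (median -0.028).

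P450s of other families did not lean either way against AAV-GFP: 11 of 22 stood higher and 11 lower (median -0.03), and 6 higher and 16 lower without AAV-GFP replicate 3 (median -0.27). In AAV-hGRB, 29 of 29 interferon-induced genes stood above AAV-GFP (median 1.47) and 29 of 29 above PBS (median 1.63), with 0 called. At an unadjusted limma p under 0.05 there were 23 and 25, against 3.35% and 5.84% of all probes. T and NK cell markers stood higher than in AAV-GFP for 6 of 6 (median 0.62), with group ranges of their mean of -2.40 to -1.15 in PBS, -1.86 to -1.40 in AAV-GFP and -1.52 to -0.31 in AAV-hGRB. Kupffer cell and macrophage markers did so for 7 of 7 (median 0.28), with ranges of 1.53 to 2.99, 2.34 to 3.14 and 2.38 to 3.53. Hepatocyte markers stood lower for 6 of 7 (median -0.18), and for 7 of 7 without AAV-GFP replicate 3 (median -0.29). The part of any of these in the P450 values was not tested.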

How the data were processed

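Liver RNA, labelled with Cy3, was hybridised to 12 one-colour Agilent arrays of 3 groups. The deposited intensity values were made by Feature Extraction 9.5.3.1, per the file headers, which subtracted background and detrended each array, and the submitters' processing notes name version 9.5. Here the deposited processed intensity was put on the log2 scale, repeated spots of a probe were averaged, and each array's 75th percentile was then subtracted. Probes well above background on at least 4 arrays (26593 of 41174) were tested with limma 3.58.1 in R 4.3.3, with 9 residual degrees of freedom, two-sided, with Benjamini-Hochberg adjustment. A gene is represented by its probe of highest mean signal. Names came from RefSeq (GRCm38.p6), which renamed 5 of the P450 probes, and probe sequences and coordinates from the array design (mm7). The series matrix holds the same 540216 values within a relative 1e-06.

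Named genes are, per comparison, the 5 of lowest p in each direction, plus a set of 26 P450s named in every case, 3 receptors, Por and the lowest-p genes of each list; others were picked after their values were seen and are marked so where described alone. The P450 genes, the lists and the tests were chosen with earlier results of these data known. The reported fit did not pair samples by replicate number, and whether the numbers pair them was not settled. Slide, scan day, scaling, background correction, filters, probe choice and left-out arrays were examined as alternatives.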

Additional observations from a re-analysis of the deposited data

Results flagged for a closer look

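Of 186 sets of 4 arrays of 1 probe, 12 (6.45%) held an array whose gap to its nearest neighbour passed Dixon's 95% limit for 4 values, and chance gives about 1 in 20. Among named genes, by their brightest probe, there were 6. Cyp2e1 read 5.87 on AAV-GFP replicate 3, where the nearest AAV-GFP array read 8.34. Cyp3a25 read 4.82 on AAV-GFP replicate 4, the array scanned on another day than the other 11, against 5.69. Cyp2a4 and Cyp2a5, whose probes overlap, read 5.81 and 7.11 on AAV-hGRB replicate 4, against 6.74 and 7.99. Cyp2b9 read 3.21 on PBS replicate 2, against 3.81, and Cyp2d26 read 8.74 on AAV-hGRB replicate 3, against 8.97.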

How the results depend on the processing

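The count of P450 genes past the threshold was 0 in each comparison under all 23 alternatives, of which 1, the most downstream probe of each gene, was chosen after seeing the data, and so were the counts without AAV-GFP replicate 3. The lowest adjusted p ran from 0.630 to 1.00 over those settings. The P450 median against AAV-GFP was 0.058 with quantile normalization, -0.13 with normexp, -0.15 with the slide as a block and -0.10 with the most downstream probes. Leaving out 1 array at a time, it ranged from -0.32 (without AAV-GFP replicate 3) to 0.07 (without AAV-GFP replicate 2). In AAV-GFP against PBS that range was -0.14 to 0.21, and in AAV-hGRB against PBS -0.12 to -0.032. Of 105 results for named genes, 28 were larger than their standard error, and 3 of these turned sign: Cyp2d10 in AAV-GFP against PBS as the mean of its probes (-0.12), Cyp2d12 in the same comparison on leaving out 1 array (-0.73 without AAV-GFP replicate 2, 0.033 without replicate 3), and Cyp2b9 in AAV-hGRB against PBS with the slide as a block (0.065). The cause was not tested. Of the smaller ones, 69 turned sign. Same-numbered samples correlated between -0.43 and 0.59. Without values for differently numbered samples beside these, they cannot show whether the numbers pair samples. With the replicate number as a block the counts stayed at 0. The median against AAV-GFP stayed at -0.058, which this block cannot change, as every group holds the same replicate numbers. With 4 arrays a group, 23 of 45 genes against AAV-GFP had an interval reaching past 2-fold.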
